A study of Homo sapiens with 6 samples.

Results

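Integrins, laminins and collagens, together with fibronectin (FN1) and thrombospondin 1 (THBS1), were followed in DMS53, an established SCLC cell line with neuroendocrine (NE) features. Members were taken by symbol: every integrin alpha or beta chain, laminin alpha, beta or gamma chain and collagen alpha chain in the files, with FN1 and THBS1 added. This gave 84 of the 62696 genes counted, of which 26 were integrins, 12 laminins, 44 collagens and 2 the added glycoproteins. All 6 libraries came from DMS53 cells in RPMI medium with serum that had received a lentivirus and were kept under puromycin. In the 3 control libraries the virus was the empty pLenti-C-mGFP-P2A-Puro vector, and in the 3 OC2-OE libraries it carried human ONECUT2 (OC2), a homeobox transcription factor, tagged with mGFP. The groups are therefore selected transduced lines, and a difference between the lines other than the insert cannot be told apart from the insert itself. The comparison asks how the matrix and adhesion genes of an NE tumour line differed when OC2 was expressed constitutively.

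Integrins are cell-surface heterodimers of an alpha and a beta chain that bind matrix proteins outside the cell and connect to actin through adaptor proteins inside it. Laminins are trimers of an alpha, a beta and a gamma chain and, with networks of type IV collagen, they form basement membranes, while fibrillar collagens form the fibres of interstitial matrix. SCLC cells in tissue lie in a matrix rich in such proteins, and their integrins are known to carry adhesion signals from it. Counts were summed over each gene, so splice forms of an integrin or a collagen were not separated.

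The libraries held between 16533284 and 19099337 read pairs on genes. ONECUT2 had 394 to 465 counts in the control libraries and 68853 to 74031 in the OC2-OE libraries, which fits the labels. Values are given as CPM, counts on a common library scale after TMM normalization, and as CPM per kilobase of merged exons where genes are compared with each other. All 8 NE markers examined (SYP, CHGA, CHGB, INSM1, NCAM1, SCG2, SCG3 and UCHL1) were detected, with a summed level of 3113 ± 35.1 CPM (SD, n = 3) in control and 4539 ± 24.6 CPM in OC2-OE. Individually 3 of them were higher in OC2-OE and 4 lower. SCG2 was at 801 CPM in control and 2270 in OC2-OE, INSM1 at 329 and 86.6, and NCAM1 at 164 and 41.2. The rise of SCG2 was larger than that of the sum, so the other markers together did not rise. Markers of cells that make matrix in tissue were low: the 7 fibroblast markers summed to between 1.2 and 2.34 CPM in every library, and THY1 had no count. The 2 that were tested were called in opposite directions. PDGFRA fell from 83 counts in control to 17 in OC2-OE, and PDGFRB rose from 8 to 49. The 6 endothelial markers summed to 13.4 to 15.3 CPM in control and 4.28 to 4.96 in OC2-OE, with KDR at 10.6 CPM in control and 1.55 in OC2-OE and PECAM1 at 2.39 and 2.46. The 7 leukocyte markers summed to 61.4 to 63.8 CPM in control and 18.3 to 20 in OC2-OE. The 2 that were tested went opposite ways. CORO1A, which gave most of the sum, fell from 58.5 to 13.2 CPM, and CD14 rose from 3.60 to 5.86 CPM. CD3E had no count and PTPRC none in control. Whether cells of these types took part in the results was not tested beyond these levels.

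The test was the quasi-likelihood test of edgeR, fitted over all genes with Benjamini-Hochberg adjustment, and a gene was called at an adjusted p under 0.001, the threshold of the study. Among the 84 members 63 had enough counts to be tested, and 44 of these were called, which is 69.8% beside 56.5% of all 17307 genes tested. A rise in OC2-OE was found for 28 of the 63 members, beside 4810 of the 17307 genes (27.8%). A fall was found for 16 of the 63, beside 4966 of the 17307 (28.7%). Both a call and a change of at least 2-fold were found for 27 members (42.9%), beside 17.3% of all genes. Of the 63 members 15 were higher by this rule, beside 1435 of the 17307 genes (8.29%). Lower by it were 12 of the 63, beside 1564 of the 17307 (9.04%). The OC2-OE libraries lay entirely above or entirely below the control libraries for 51 members (81%), beside 73.2% of all genes. The median log2 fold change of the members tested was 0.24 and that of all genes 0.01, and the median size of the change regardless of sign was 0.86 and 0.38. Since these are bulk libraries, fewer cells that make an RNA and less of it in each cell cannot be told apart.

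The families moved by different amounts. Integrin RNAs summed to 784 to 814 CPM in the control libraries and 1678 to 1722 in OC2-OE. Of the difference of 897 CPM between the group means, ITGAV gave 477 and ITGB6 321. In contrast, the collagen sum was 575 to 597 CPM in control and 573 to 579 in OC2-OE, so its groups overlapped. Of the 32 collagens tested 21 were called, which is 65.6% beside 56.5% of all genes. Of 18 integrins tested 11 rose, 2 fell and 5 did not pass (72.2% called), with a median log2 fold change of 0.48. Of 11 laminins tested 5 rose, 3 fell and 3 did not pass (72.7% called). Their median was -0.01, the value of LAMB4, a chain at 0.753 CPM in control and 0.742 in OC2-OE. The median does not describe the amount of laminin RNA, whose sum is not reported here. Per kilobase the beta chains summed to 56 CPM in control and 83.9 in OC2-OE, and the alpha chains to 10.9 and 9.75. Of the 32 collagens 11 rose, 10 fell and 11 did not pass, with a median of 0.15. Without the filter on low counts the collagen median turned to -0.08 and the integrin median was 0.24.

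Among the integrin beta chains, ITGB6 rose and ITGB8 fell. Both are known as partners of the alpha V chain in receptors that bind and activate latent TGF-beta, ITGB6 mainly on epithelial cells. ITGB6 (ENSG00000115221, chromosome 2 from 160099667 to 160200313 on the minus strand) was at 35.2, 33.9 and 31.1 CPM in control 1 to 3 and at 353, 357 and 356 CPM in OC2-OE 1 to 3. Every OC2-OE library was thus far above every control library, and the log2 fold change was 3.40 (standard error 0.04, adjusted p = 1.18e-109 with edgeR's quasi-likelihood test and Benjamini-Hochberg adjustment). ITGB8 was at 70.1, 76.1 and 73.5 CPM in control and at 17.4, 17.4 and 16.1 CPM in OC2-OE, again without overlap but in the opposite direction (log2 fold change -2.11, standard error 0.06, adjusted p = 8.69e-65, same test). Per kilobase the ratio of ITGB6 to ITGB8 RNA was between 1.11 and 1.32 in the control libraries and between 53 and 57.7 in OC2-OE. Exons of ITGB6 share 16.7% of their bases with a same-strand gene, ENSG00000285155, whose own counts were 3 in control and 8 in OC2-OE, and by the default of the counting step read pairs that fit both equally were given to neither.

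The bases before the ITGB6 start are shown because OC2 and its paralogs are known to bind sites close to ATCGAT and ATCAAT and because ITGB6 had the largest rise among the integrins. Promoter windows, 250 bases before to 50 after a start (RefSeq, GRCh38.p14), were at hand for 60 of the 84 members. The stretch below is the part of that window outside the exons of ITGB6, on the minus strand of chr2:160200314-160200522, with ATCAAT in capitals on either strand (ATTGAT is its reverse complement).
ITGB6: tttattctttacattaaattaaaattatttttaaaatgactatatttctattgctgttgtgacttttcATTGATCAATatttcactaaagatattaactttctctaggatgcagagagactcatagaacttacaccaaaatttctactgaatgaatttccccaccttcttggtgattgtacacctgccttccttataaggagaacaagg
The capitals form the palindrome ATTGATCAAT, which begins 182 bases before the RefSeq start and holds the motif on both strands, overlapping by 2 bases. G and C made up 30.1% of this stretch, beside a median of 66.3% in the members' windows and 58.7% in all 35116 windows of the table. ATCAAT on either strand was in 6.26% of all windows and in 2 of the 60 members' windows (3.33%), those of ITGB6 and ITGA2B. ATCGAT was in 0.763% of all windows and in 0 of the members' windows, which says only that these letters are not there. TATAAA was in 11.5% of all windows and in 7 of the members' windows (11.7%). Of these members COL17A1, COL7A1 and ITGA6 rose, COL6A6 fell, and COL10A1, COL13A1 and COL6A2 were not tested. A match describes the letters and not a site in use.

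Other beta chains changed less. ITGB1, the partner shared by most alpha chains, was at 275, 277 and 262 CPM in control and at 312, 321 and 314 CPM in OC2-OE, and its log2 fold change was 0.22 (standard error 0.03, adjusted p = 1.57e-13 with edgeR's quasi-likelihood test and Benjamini-Hochberg adjustment). ITGB4, the partner of ITGA6 in hemidesmosomes, was low in both groups, at 1.98 ± 0.38 CPM (SD, n = 3) in control and 7.56 ± 0.37 CPM in OC2-OE, and rose by a log2 fold change of 1.92. ITGB5 (log2 fold change -0.13) and ITGB7 (0.00) did not pass, and ITGB2 and ITGB3, chains of leukocyte and platelet integrins, were below the filter on low counts, ITGB2 with 0 counts in control and 2 in OC2-OE. As a share of the summed CPM per kilobase of the 8 beta chains, ITGB6 was at 16.7% ± 0.81 (SD, n = 3) in control and 68.2% ± 0.09 in OC2-OE. ITGB1 was at 53.9% ± 0.67 and 24.1% ± 0.22, and ITGB8 at 14% ± 0.57 and 1.25% ± 0.06. The beta chain with the highest level per kilobase was thus ITGB1 in the control libraries and ITGB6 in the OC2-OE libraries. The length used is that of all merged exons, 14561 bases for ITGB1 and 5785 for ITGB6, and these shares depend on it. In CPM, without division by length, ITGB1 was at 271 in control and 315 in OC2-OE, and ITGB6 at 33.4 and 355.

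Among the alpha chains tested 8 rose, 1 fell and 3 did not pass (75% called, beside 56.5% of all genes). ITGAV, the alpha V chain that pairs with ITGB6 and ITGB8 among others, was the most abundant of them per kilobase in both groups. It was at 234, 235 and 229 CPM in control and at 701, 726 and 701 CPM in OC2-OE, with no overlap, and its log2 fold change was 1.61 (standard error 0.02, adjusted p = 1.74e-93 with edgeR's quasi-likelihood test and Benjamini-Hochberg adjustment). ITGA5, which with ITGB1 forms the main fibronectin receptor, was at 17.4, 16.4 and 18.3 CPM in control and at 62.9, 59.4 and 61.2 CPM in OC2-OE (log2 fold change 1.82, standard error 0.06). ITGA2, a collagen receptor chain, was at 7.92, 6.27 and 6.52 CPM in control and at 26.2, 27.1 and 29.4 CPM in OC2-OE (1.99, standard error 0.09). In each of these the groups lay apart. ITGA4, which binds fibronectin and VCAM1, rose from 2.14 ± 0.21 to 9.64 ± 1.26 CPM (SD, n = 3, log2 fold change 2.16), and ITGA9, its closest relative, from 1.33 ± 0.30 to 4.03 ± 0.37 CPM (1.59). Per kilobase the ratio of ITGB6 to ITGAV was 0.479 ± 0.0243 (SD, n = 3) in control and 1.67 ± 0.0276 in OC2-OE. That ratio depends on the merged exon lengths, 5785 bases for ITGB6 and 19336 for ITGAV. In CPM ITGB6 was below ITGAV in both groups, at 33.4 and 233 in control and at 355 and 710 in OC2-OE.

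The laminin-binding alpha chains changed less. ITGA6 was at 43.4, 41.2 and 41.9 CPM in control and at 59.1, 63.8 and 63.4 CPM in OC2-OE (log2 fold change 0.56, standard error 0.05, adjusted p = 3.07e-20 with edgeR's quasi-likelihood test and Benjamini-Hochberg adjustment). ITGA3 rose by a log2 fold change of 0.43, and ITGA7, best known from muscle, was at 8.51 CPM in control and 8.77 in OC2-OE and did not pass. ITGA1, a further collagen receptor chain, passed with 0.24 (adjusted p = 8.05e-04) but lost the call in 9 of 15 other settings, among them each left-out control library and 2 of the 3 left-out OC2-OE libraries, and 5.77% of its exon bases are shared with the same-strand gene PELO and a pseudogene. ITGAE, best known from T cells of epithelia, was the 1 alpha chain that fell, from 17.5 ± 1.04 to 12 ± 0.80 CPM (log2 fold change -0.54, adjusted p = 1.41e-08). ITGA10 and ITGA2B did not pass, and ITGAL, ITGAM, ITGAX, ITGAD, ITGA8 and ITGA11 were below the filter, ITGAD with no count at all.

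**Figure D1:**
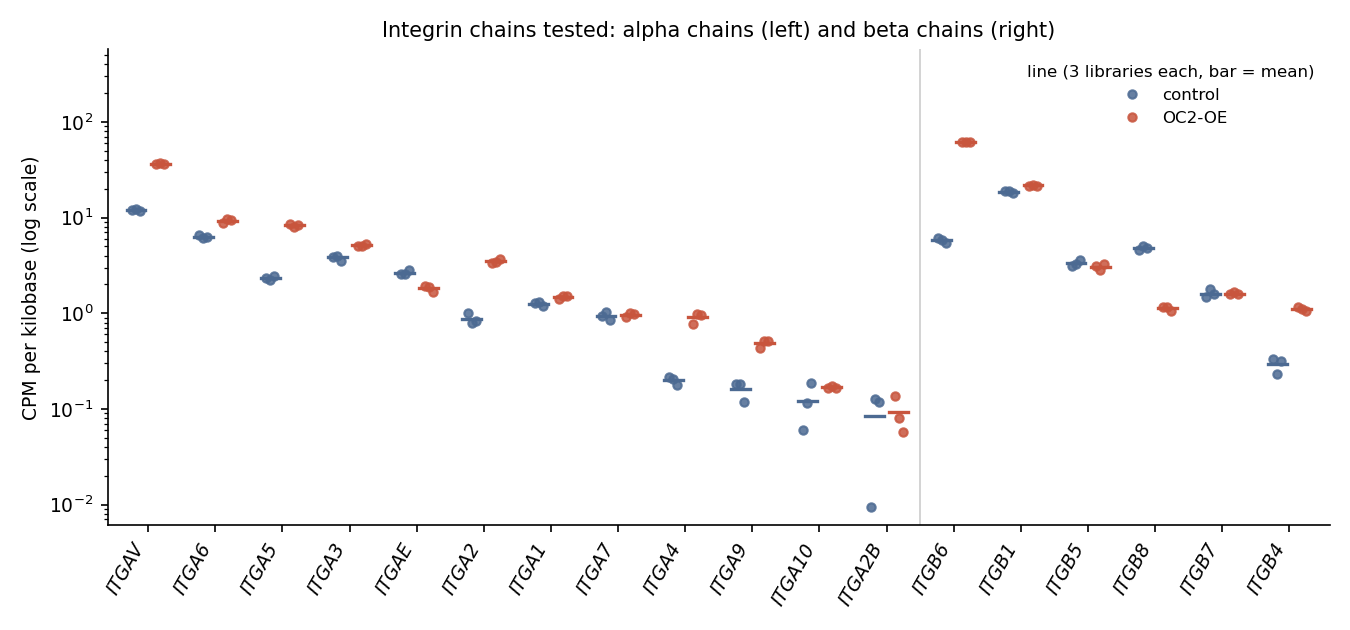
Level of the 18 integrin chains tested in CPM per kilobase of exon on a log axis, with 1 point per library, 3 libraries per group and a bar at the mean. ITGB6 and ITGAV stand out with OC2-OE means of 61.3 and 36.7, and ITGB8 lies lower in OC2-OE (1.12) than in control (4.83).

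Of the laminin chains, LAMB3 was the most abundant per kilobase in both groups. LAMB3 and LAMA3 encode chains of the laminin that anchors the epidermis at hemidesmosomes. LAMB3 was at 232, 233 and 237 CPM in control and at 361, 361 and 358 CPM in OC2-OE, with no overlap (log2 fold change 0.62, standard error 0.02, adjusted p = 3.64e-47 with edgeR's quasi-likelihood test and Benjamini-Hochberg adjustment). LAMA3 went the other way and fell from 24.3 ± 0.81 to 18.3 ± 1.15 CPM (SD, n = 3, log2 fold change -0.41, adjusted p = 2.20e-07). These chains of 1 trimer therefore differed in level and direction: per kilobase LAMB3 was 30 times LAMA3 in control and 61.5 times in OC2-OE.

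LAMC1, the gamma chain of most laminins, rose from 116 ± 4.73 to 168 ± 4.72 CPM (SD, n = 3, log2 fold change 0.53, adjusted p = 3.15e-31 with edgeR's quasi-likelihood test and Benjamini-Hochberg adjustment). LAMC3 had 1 count in control and 0 in OC2-OE. Among the beta chains LAMB2, best known from the kidney filter and the neuromuscular junction, was at 0.749, 1.67 and 1.48 CPM in control and at 9.55, 8.66 and 9.33 CPM in OC2-OE (log2 fold change 2.84, standard error 0.17, adjusted p = 5.60e-31). LAMB1 was at 99.3 CPM in control and 92.6 in OC2-OE and did not pass (log2 fold change -0.10, adjusted p = 0.0103), nor did LAMB4, which was under 1 CPM in every library.

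Of the 5 laminin alpha chains 3 fell, 1 rose and 1 did not pass (80% called, beside 56.5% of all genes). LAMA4, a chain of vessel and muscle laminins, was at 30.4, 33.5 and 31.1 CPM in control and at 12.2, 11.3 and 10.7 CPM in OC2-OE, with no overlap (log2 fold change -1.47, standard error 0.07, adjusted p = 1.29e-37 with edgeR's quasi-likelihood test and Benjamini-Hochberg adjustment). LAMA1, the chain of early embryonic basement membranes, fell from 11.1 ± 0.80 to 5.82 ± 0.36 CPM (SD, n = 3, log2 fold change -0.93). LAMA5, the chain of most adult epithelial basement membranes, rose from 80.1 ± 3.71 to 99.4 ± 4.76 CPM (log2 fold change 0.31, adjusted p = 4.27e-12), and LAMA2 did not pass (-0.14). LAMA5 made up 51.6% ± 1.18 of the summed alpha chain level per kilobase in control and 71.3% ± 1.86 in OC2-OE, and LAMA4 24.3% ± 1.23 and 9.76% ± 0.85. The summed level itself was 10.9 ± 0.37 CPM per kilobase for the alpha chains in control and 9.75 ± 0.22 in OC2-OE, whereas that of the beta chains was 56 ± 0.49 and 83.9 ± 0.27.

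**Figure D2:**
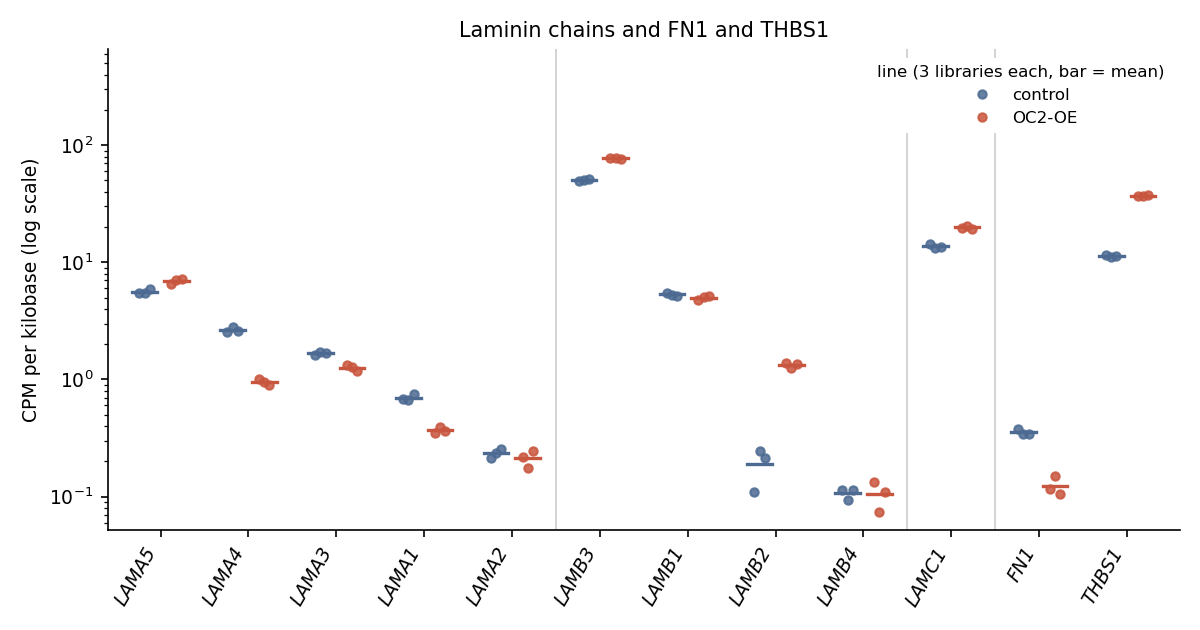
Level of laminin chains tested and of FN1 and THBS1 in CPM per kilobase of exon on a log axis, with 1 point per library, 3 libraries per group and a bar at the mean. LAMB3 has the highest level in both groups (50.4 in control and 77.4 in OC2-OE), LAMA4 lies lower in OC2-OE (0.951) than in control (2.64), and FN1 and THBS1 differ in opposite directions.

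The 2 glycoproteins changed in opposite directions. THBS1, a secreted protein that binds integrins, collagens and latent TGF-beta, was at 107, 102 and 103 CPM in control and at 337, 340 and 343 CPM in OC2-OE. Its groups lay apart, and the log2 fold change was 1.71 (standard error 0.03, adjusted p = 1.03e-86 with edgeR's quasi-likelihood test and Benjamini-Hochberg adjustment). FN1, the fibronectin that ITGA5 and ITGAV receptors bind, was low, with 121, 99 and 95 counts in control and 38, 45 and 33 in OC2-OE. This was 6.08 ± 0.35 CPM (SD, n = 3) in control and 2.13 ± 0.41 CPM in OC2-OE, and the fitted log2 fold change was -1.52 (standard error 0.17, adjusted p = 1.90e-14). FN1 thus fell in the same libraries in which the fibronectin receptor chain ITGA5 rose.

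The type IV collagens, which form the network of basement membranes, are coded by 6 genes in 3 pairs that lie head to head, and in each pair the 2 genes had fold changes of the same sign. On chromosome 13 both genes fell. COL4A2 was at 101, 103 and 108 CPM in control and at 48.2, 48 and 52.6 CPM in OC2-OE (log2 fold change -1.07, standard error 0.04, adjusted p = 6.25e-48 with edgeR's quasi-likelihood test and Benjamini-Hochberg adjustment). COL4A1 was at 8.4, 10.8 and 8.86 CPM in control and at 7.15, 6.06 and 7.08 CPM in OC2-OE (log2 fold change -0.46, standard error 0.12, adjusted p = 2.25e-04). The groups did not overlap in either gene, but the COL4A1 call was lost in 4 of 15 other settings: with library size alone as the scale (adjusted p = 0.00108), with DESeq2 (0.00446), without control replicate 2 (log2 fold change -0.35, adjusted p = 0.0142) and without OC2-OE replicate 2 (-0.39, 0.00491). Per kilobase COL4A2 was at 8.55 ± 1.13 times the level of COL4A1 in control and 5.60 ± 0.45 times in OC2-OE, although the trimer they form is known to hold more COL4A1 than COL4A2 chains.

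On chromosome 2 both genes rose. COL4A4 was at 16.4, 15.7 and 17.1 CPM in control and at 31.2, 33.1 and 29.5 CPM in OC2-OE (log2 fold change 0.93, standard error 0.07, adjusted p = 1.53e-24 with edgeR's quasi-likelihood test and Benjamini-Hochberg adjustment). COL4A3 was at 6.26, 6.45 and 7.38 CPM in control and at 13.2, 12 and 15 CPM in OC2-OE (log2 fold change 1.01, standard error 0.11, adjusted p = 1.41e-15). Neither overlapped between groups, and the ratio of COL4A4 to COL4A3 per kilobase was 2.55 ± 0.16 in control and 2.45 ± 0.41 in OC2-OE, with overlap. On chromosome X COL4A5, which joins COL4A3 and COL4A4 in the trimer of the kidney filter and the lung alveolus, was at 22.5, 24.1 and 23.2 CPM in control and at 73.1, 70.2 and 72.1 CPM in OC2-OE (log2 fold change 1.62, standard error 0.05, adjusted p = 3.57e-56). Its neighbour COL4A6 was at 1.82, 1.25 and 1.84 CPM in control and at 2.35, 2.77 and 3.02 CPM in OC2-OE, without overlap, and did not pass (log2 fold change 0.72, adjusted p = 0.00276). As a share of the summed type IV level per kilobase, COL4A2 was at 53.4% ± 0.44 in control and 19.6% ± 0.74 in OC2-OE, COL4A5 at 19.4% ± 0.66 and 46.1% ± 0.74, and COL4A4 at 13.7% ± 0.55 and 20.2% ± 1.48.

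The stretches between the paired starts are shown because the genes of a pair read away from each other across them. RefSeq (GRCh38.p14) places the starts of COL4A1 and COL4A2 126 bases apart, those of COL4A3 and COL4A4 418 bases apart and those of COL4A5 and COL4A6 379 bases apart. Printed here are the bases of a RefSeq window that lie in no exon of either gene, on the plus strand, at chr13:110307158-110307257, chr2:227164454-227164623 and chrX:108439588-108439837, with CCAAT in capitals on either strand (ATTGG is its reverse complement).
COL4A1/COL4A2: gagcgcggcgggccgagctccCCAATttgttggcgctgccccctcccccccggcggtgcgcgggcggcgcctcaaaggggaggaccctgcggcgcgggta
COL4A3/COL4A4: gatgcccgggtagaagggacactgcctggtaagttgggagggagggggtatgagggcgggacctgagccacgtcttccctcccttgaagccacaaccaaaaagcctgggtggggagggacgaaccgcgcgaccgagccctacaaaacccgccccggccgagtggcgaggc
COL4A5/COL4A6: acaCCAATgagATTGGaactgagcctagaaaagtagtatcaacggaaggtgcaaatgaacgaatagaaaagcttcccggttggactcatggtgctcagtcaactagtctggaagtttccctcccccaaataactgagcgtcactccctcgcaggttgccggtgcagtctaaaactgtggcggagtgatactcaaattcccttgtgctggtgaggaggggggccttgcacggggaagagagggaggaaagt
The pair that fell had 1 CCAAT in a stretch with 78% G and C. The pair on chromosome 2 had 0 in a stretch with 65.9% G and C, and the pair on chromosome X had 2, on opposite strands, in a stretch with 51.2%. CCAAT, chosen after the sequences had been seen, was on either strand in 34.6% of all windows and in 16 of the 60 members' windows (26.7%).

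Type VI collagen, which forms beaded filaments around cells, showed another division. COL6A1 was at 53.4, 54.6 and 56.1 CPM in control and at 66.2, 71.4 and 74.8 CPM in OC2-OE (log2 fold change 0.37, standard error 0.04, adjusted p = 7.73e-13 with edgeR's quasi-likelihood test and Benjamini-Hochberg adjustment). COL6A3 was at 22.1, 22.1 and 25.2 CPM in control and at 8.66, 8.2 and 8.18 CPM in OC2-OE (log2 fold change -1.46, standard error 0.09, adjusted p = 7.11e-32). COL6A6, an alternative to COL6A3 in the trimer, fell from 7.29 ± 0.95 to 2.40 ± 0.51 CPM (SD, n = 3, log2 fold change -1.61), and COL6A5 did not pass. COL6A2, which lies 93061 bases from COL6A1 on chromosome 21 and is required with it in every type VI trimer, had 3 counts in control and 17 in OC2-OE and was not tested. Its ratio was 5.35 with a 95% interval of 1.55 to 28.5, which covers counting error only, and it was thus near the limit of detection beside a well expressed COL6A1.

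Of the fibrillar collagens and those that bind to fibrils (FACIT), 16 were tested, and 3 rose while 4 fell. The share called was 37.5% of the fibrillar and 50% of the FACIT collagens tested, below the 56.5% of all genes. COL16A1, a FACIT collagen and the collagen with the highest CPM in control, was at 176, 187 and 184 CPM in control and at 74.2, 72.2 and 68.7 CPM in OC2-OE, with no overlap (log2 fold change -1.35, standard error 0.03, adjusted p = 1.52e-66 with edgeR's quasi-likelihood test and Benjamini-Hochberg adjustment). It made up 31.2% of the summed collagen CPM in control and 12.5% in OC2-OE. COL2A1, the collagen of cartilage, was at 17.5, 17 and 19.2 CPM in control and at 2.35, 1.44 and 2.09 CPM in OC2-OE (log2 fold change -3.18, standard error 0.13, adjusted p = 2.20e-46), the largest fall among the members. COL24A1 fell from 7.81 ± 0.80 to 3.87 ± 0.45 CPM (SD, n = 3, log2 fold change -1.02) and COL14A1 from 4.41 ± 0.93 to 1.90 ± 0.30 CPM (-1.22). COL12A1 rose from 17.1 ± 0.65 to 28.9 ± 0.78 CPM (0.76). COL21A1 rose with 0.23, a call lost with DESeq2 and without control replicate 1, OC2-OE replicate 1 or OC2-OE replicate 3.

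Type I collagen was present through 1 of its 2 chains. COL1A1 was at 23.3, 19.9 and 21.5 CPM in control and at 27.8, 26.3 and 29.4 CPM in OC2-OE (log2 fold change 0.37, standard error 0.07, adjusted p = 7.11e-07 with edgeR's quasi-likelihood test and Benjamini-Hochberg adjustment). COL1A2, the partner chain, was at 0.532 ± 0.187 CPM (SD, n = 3) in control and 1.19 ± 0.14 CPM in OC2-OE and did not pass (log2 fold change 1.17, adjusted p = 0.00214). COL3A1, which fibroblasts make along with both, had 6 counts in control and 2 in OC2-OE. Among the fibroblast markers PDGFRA was at 1.61 CPM in control and 0.314 in OC2-OE, and PDGFRB at 0.153 and 0.894. Whether fibroblasts gave any of these collagen RNAs was not tested. COL5A2 and COL9A3 did not pass but were called as higher when OC2-OE replicate 3 or control replicate 2, respectively, was left out (log2 fold changes of 0.55 and 0.87, with 0.42 and 0.58 over all libraries). The others of these classes that were tested and did not pass were COL11A1, COL11A2, COL27A1, COL9A1, COL9A2 and COL19A1, with fold changes between -0.86 and 0.80 on the log2 scale.

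Collagens outside these classes held the largest rises of the family. COL17A1, a transmembrane collagen of hemidesmosomes in epithelia, had 0, 0 and 2 counts in the control libraries and 181, 168 and 182 in OC2-OE. The ratio was 251 with a 95% interval of 69.1 to 2076, for counting error only, and the fitted log2 fold change of 7.73 rests on the 2 counts in control replicate 3, since it was 10.45 without that library. COL28A1, a collagen known from peripheral nerve, was at 14.9, 11.8 and 10.8 CPM in control and at 84.2, 83.6 and 81.8 CPM in OC2-OE, with no overlap (log2 fold change 2.72, standard error 0.06, adjusted p = 5.01e-64 with edgeR's quasi-likelihood test and Benjamini-Hochberg adjustment). COL8A1, a short chain network collagen, rose from 4.69 ± 1.37 to 11.3 ± 1.07 CPM (SD, n = 3, log2 fold change 1.28), and COL7A1, which forms the anchoring fibrils below epidermal basement membranes, rose from 6.58 ± 0.20 to 12.6 ± 0.55 CPM (0.94). COL25A1, a transmembrane collagen of neurons, fell from 5.46 ± 0.42 to 1.98 ± 0.34 CPM (-1.47). COL15A1, a basement membrane collagen with 50 counts in control and 11 in OC2-OE, fell by 2.22 on the log2 scale, and that call was lost without OC2-OE replicate 1 (-1.75, adjusted p = 0.00146). The 12 collagens not tested, COL6A2 and COL3A1 among them, had at most 49 counts over the 6 libraries (COL8A2), and COL23A1 had none.

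**Figure D3:**
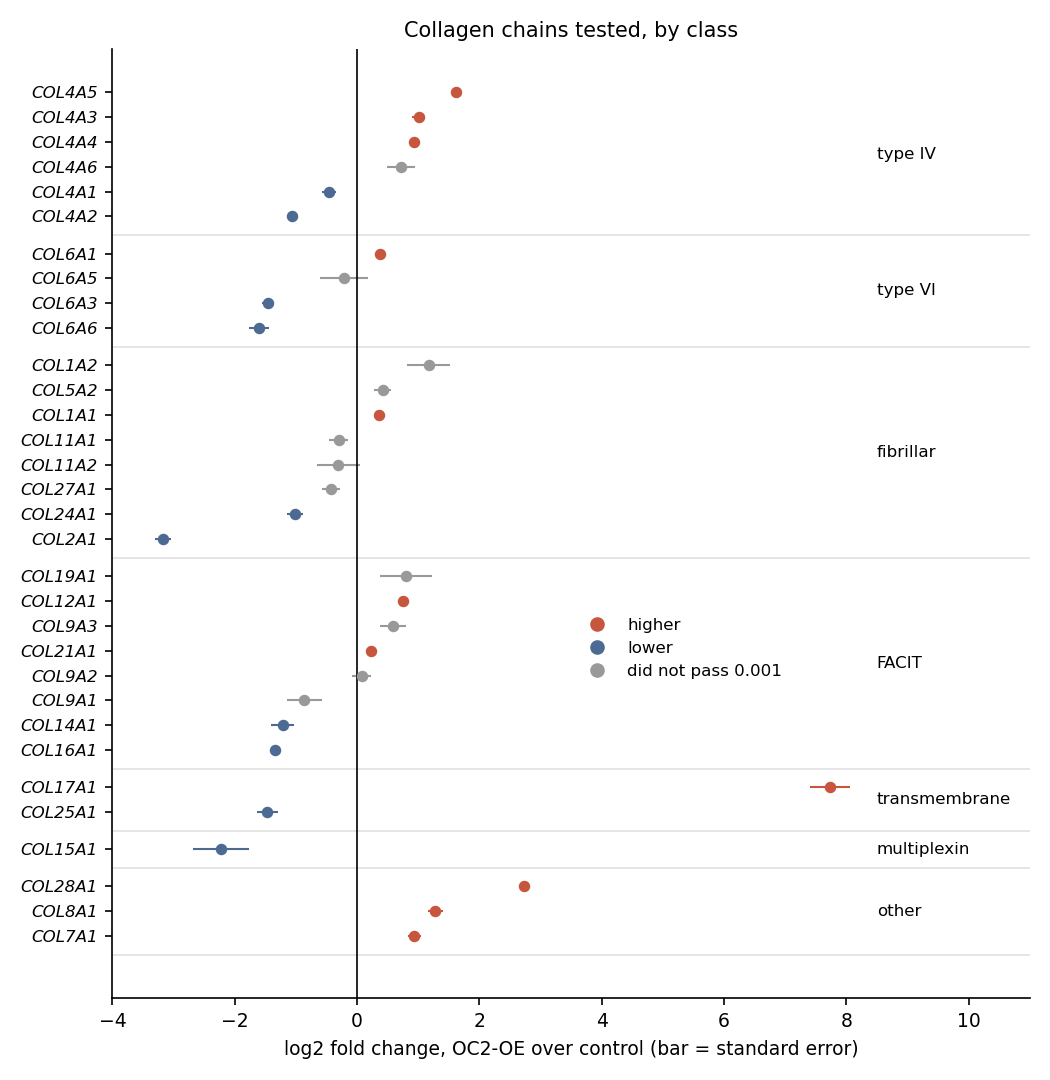
Log2 fold change of the 32 collagen chains tested, OC2-OE over control, by class, with bars for the standard error and colours for the calls at an adjusted p under 0.001. Each class with more than 1 chain called, other than the last, holds both higher and lower chains, from COL2A1 at -3.18 to COL17A1 at 7.73.

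Genes that act with the members were described from lists written from general knowledge. Of 37 other matrix glycoproteins tested, 12 rose, 14 fell and 11 did not pass, with a median log2 fold change of 0.01. The share called was 70.3%, beside 56.5% of all genes tested. TNC, tenascin C of remodelling matrix, was at 2.73, 2.63 and 2.89 CPM in control and at 82, 83.8 and 82.3 CPM in OC2-OE, with no overlap (log2 fold change 4.91, standard error 0.08, adjusted p = 4.92e-88 with edgeR's quasi-likelihood test and Benjamini-Hochberg adjustment). EFEMP1, a fibulin, rose from 1.01 ± 0.20 to 12.2 ± 0.32 CPM (SD, n = 3, 3.59), and SMOC2, a calcium-binding matricellular protein, fell from 32.1 ± 1.16 to 6.34 ± 1.04 CPM (-2.34). Of 16 proteoglycans tested, 8 rose and 6 fell (87.5% called), with a median of 0.22. GPC3, a cell-surface glypican, fell from 41 ± 0.82 to 6.89 ± 0.43 CPM (-2.57), while AGRN, the basement membrane proteoglycan agrin, rose from 31.7 ± 2.53 to 79.5 ± 1.24 CPM (1.33) and FMOD, fibromodulin, from 8.18 ± 0.84 to 23.8 ± 1.01 CPM (1.53).

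Of the genes that link integrins to actin all 26 were tested, and 7 rose, 9 fell and 10 did not pass, with a median log2 fold change of 0.03. The share called was 61.5% beside 56.5% of all genes, and the median size of change 0.35 beside 0.38, so both lay near the background. TNS3, a tensin, fell from 103 ± 4.34 to 42.4 ± 1.65 CPM (SD, n = 3, log2 fold change -1.28), and PTK2B, a focal adhesion kinase relative, rose from 8 ± 1.06 to 17.3 ± 1.06 CPM (1.10). Of 25 genes of collagen biosynthesis and crosslinking tested, 14 rose, 5 fell and 6 did not pass, with a median of 0.29. The share called was 76% beside 56.5% of all genes, while the share called with a change of at least 2-fold was 16% beside 17.3%. PCOLCE2, an enhancer of procollagen processing, was at 0.107, 0 and 0.369 CPM in control and at 35.9, 36.1 and 33.4 CPM in OC2-OE. BMP1, the procollagen C-proteinase, rose from 4.33 ± 0.79 to 9.88 ± 0.74 CPM (1.18), and LOXL2, a crosslinking lysyl oxidase, fell from 17.1 ± 0.40 to 2.89 ± 0.20 CPM (-2.56). Of 15 other matrix receptors tested, 8 rose and 4 fell (80% called), with a median of 0.19. CD9, a tetraspanin, fell from 24.4 ± 2.15 to 3.29 ± 0.27 CPM (-2.88), HMMR, a hyaluronan-binding protein of the mitotic spindle, from 114 ± 2.51 to 24.5 ± 0.89 CPM (-2.22) and CD82, another tetraspanin, from 71.3 ± 2.53 to 30.2 ± 1.85 CPM (-1.24).

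**Figure D4:**
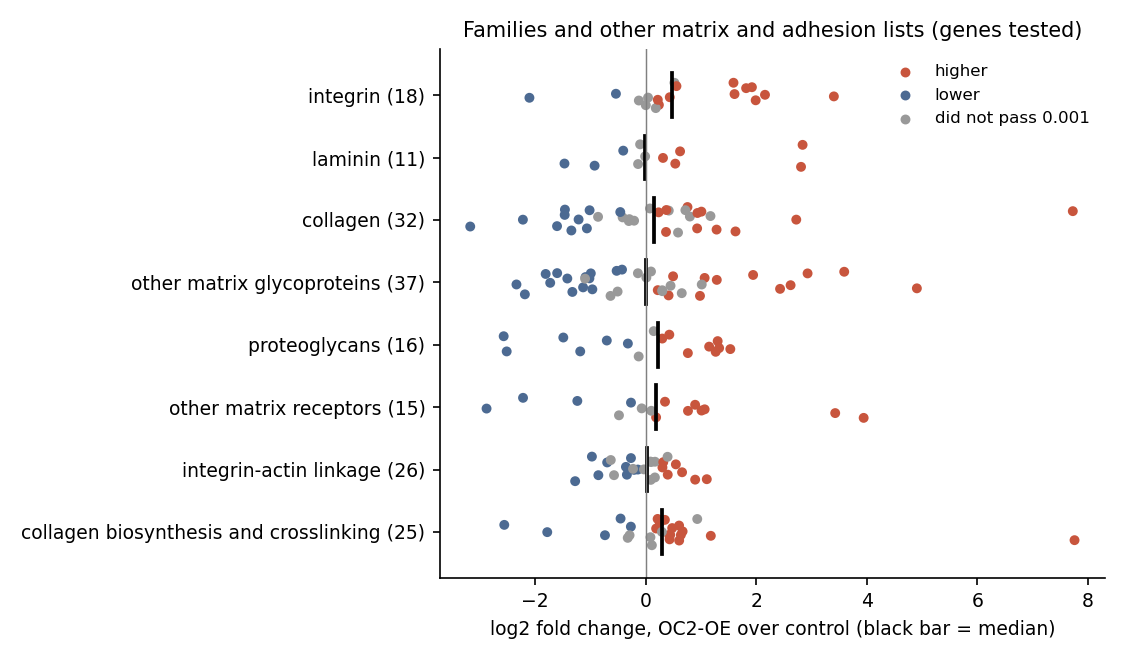
Log2 fold change of every gene tested in the 3 member families and in 5 lists of genes that act with them, OC2-OE over control, with 1 point per gene, a black bar at the median and colours for the calls. The medians lie between -0.01 for laminins and 0.48 for integrins, and the integrin to actin linkage genes have the narrowest spread, from -1.28 to 1.10.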

How the data were processed

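The authors prepared stranded poly(A) RNA libraries from 3 control and 3 OC2-OE samples of DMS53. The paper describes its RNA-Seq as 3 independent experiments for each condition without saying whether each had its own transduction, so p-values measure the spread between these libraries. That spread was small, with a fitted coefficient of variation of 2.2% beyond counting error. The submitters' processing notes name FastQC 0.11.8, STAR 2.7.9a, featureCounts 1.6.0, edgeR and limma. Per the file headers, the deposited values are raw counts of read pairs on the reverse strand, summed by gene over the exons of GENCODE release 42 (62696 genes, GRCh38), and no column was left unused. Normalization, filtering and testing were done here from these counts.

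Library totals were 16533284 to 19099337, which limits the precision of low genes. A fold change against 1 to 3 counts is given as a ratio with its exact 95% binomial interval, which covers counting error only. Counts were scaled by TMM (factors 0.980 to 1.02) and filtered with filterByExpr in edgeR 4.0.16 under R 4.3.3, and 17307 genes were fitted with the robust quasi-likelihood test, with group as the sole term and Benjamini-Hochberg adjustment over all of them. The threshold of 0.001 is that of the study, whose text does not name its test. Standard errors were derived from the log2 fold change and the F statistic of its test. The fit was tested on simulated data. Symbols came from a table matched by Ensembl identifier for 62625 genes.

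The members and lists were chosen with earlier results of these data known. The genes named in full are FN1, THBS1, members called with a change of at least 1 on the log2 scale, either way, and at least 5 CPM in a group, the most abundant member per kilobase of each family, the partners of neighbouring pairs, and the 3 largest changes above 5 CPM on each list. All other members are named with fewer values, and those and the ratios between chains were chosen after values had been seen. Promoter windows are from RefSeq GRCh38.p14, read with Python 3.11.15, and protein sequences were not used here. A member and a gene of 1 list that the rule takes are not reported here.

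The alternatives were DESeq2 size factors, library size only, upper-quartile scaling, the Wald test of DESeq2 1.42.0, voom of limma 3.58.1, no filter, a minimum of 10 counts per library, leaving out ONECUT2, blocking on the replicate number, leaving out single libraries, an adjusted p under 0.05 and a minimum change of 1 on the log2 scale.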

Additional observations from a re-analysis of the deposited data

How the results depend on the processing

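Of the 44 members called, 40 kept their call in every alternative fit in which they were tested, and COL4A1, ITGA1, COL21A1 and COL15A1 lost it in at least 1. No called member changed sign. The 33 named members tested gave 494 values under 15 alternatives, of which 490 kept direction and side of the threshold and 4, all of COL4A1, did not pass. The number of members called was between 42 and 43 with a library left out, with 26 to 28 higher and 15 or 16 lower. With a minimum change of 1 on the log2 scale as well, 27 members were called, 15 of them higher, which follows from the stricter rule. Members without overlap numbered 51 to 55 with a library left out. Without a filter on low counts 82 members were tested and 52.4% of them were called, beside 28.3% of all genes, the collagen median was -0.08 instead of 0.15 and the integrin median 0.24 instead of 0.48. Family medians were less stable than single members: 70 of their 314 values moved by more than the spread between replicates. The integrin median moved in 11 of 15 alternatives, between 0.24 and 0.60, and the laminin median was 0.18 without OC2-OE replicate 2. Library size alone moved the median of all genes to 0.06.

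With the replicate number as a block 9642 genes and 68.3% of the tested members were called, and ITGA1 lost its call. The deviations of same-numbered libraries correlated at 0.002, 0.034 and 0.026, which shows no clear pairing by number. Control replicates 2 and 3 correlated best with the OC2-OE library of the same number, and control replicate 1 with OC2-OE replicate 3 (0.003).

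Depth limits the 21 members not tested, which had at most 52 counts over all libraries. The log2 fold change of COL17A1 was 7.16 to 10.45 with a library left out, since control held 2 counts.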
